A study of Homo sapiens with 6 samples.

Results

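A set of 10 autophagy genes was followed in ribosome footprint libraries of RKO cells. They are ULK1, BECN1, ATG5, ATG7, ATG16L1, WIPI1, WIPI2, GABARAPL1, MAP1LC3B and SQSTM1, taken by name after Ensembl identifiers were matched to symbols, and all 10 were found among the 20289 genes of the deposited table. RKO is a human colorectal carcinoma line. The groups were shTRMT6, cells carrying a short hairpin RNA against TRMT6 and labelled as a TRMT6 knockdown, and shControl, cells with a control hairpin that are labelled WT, with 3 libraries each. Both groups share the RKO background, and no other agent is named. TRMT6 is the partner of the catalytic subunit TRMT61A in the enzyme that places m1A on cytosolic tRNAs. The labels give neither the hairpin sequence nor the number of hairpins. Nothing says that replicates are separate cultures, and a p-value here reflects the spread among 3 libraries a group, which may be technical. The deposited columns are named SH and NC and were read as shTRMT6 and shControl, which no label spells out and the TRMT6 values below bear on.

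Autophagy encloses cytoplasm in a double membrane and delivers it to the lysosome. The ULK1 kinase complex starts the process, the BECN1 lipid kinase complex marks the membrane with PI3P, and WIPI proteins read that lipid. Of these, WIPI2 recruits ATG16L1. ATG7 then acts as the E1-like enzyme that allows ATG5 to be joined to ATG12 and the ATG8 proteins (the LC3 and GABARAP families) to be joined to lipid, and receptors such as SQSTM1 (p62) tie cargo to the ATG8 proteins. The pathway is used by epithelial tumour cells in starvation and stress, and much of its control lies in phosphorylation, conjugation and turnover, which footprints do not measure.

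Footprint levels are given as FPKM, a value per length of gene and per library. A footprint level combines the amount of mRNA with the ribosomes on each mRNA, and the values do not separate them, nor a smaller share of cells from less RNA per cell. FPKM summed to 1531873 to 1582826 in shTRMT6 and 1463344 to 1760307 in shControl libraries, and 2582000 to 4046000 reads per shTRMT6 library and 2605000 to 3903000 per shControl library were estimated from how low FPKM values are spaced. TRMT6 had 20.7, 21.9 and 24.1 FPKM in shTRMT6, against 57.6, 58.4 and 95.3 FPKM in shControl (log2 fold change of FPKM + 1 -1.58, SE 0.27, limma adjusted p = 0.00301). Of 7 epithelial markers, KRT8, KRT18, EPCAM and CDX2 had at least 1 FPKM in every library, CDH1 and VIL1 were listed at 0 in all of them, and KRT19 was above 0 in 1. The 7 summed to 168 to 193 FPKM in shTRMT6 and 165 to 262 FPKM in shControl. Of 8 markers of blood cells, fibroblasts and endothelium, CD68, which encodes a lysosomal glycoprotein, had at least 1 FPKM in every library, and PTPRC, CD3E, PDGFRB and VWF were listed at 0 throughout. The 8 summed to 575 to 755 FPKM in shTRMT6 and 560 to 741 FPKM in shControl, nearly all of it from CD68, and their part in the results was not tested.

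Of the 10 genes, 5 were higher in shTRMT6 (ULK1, BECN1, ATG16L1, WIPI1 and GABARAPL1), 1 was lower (ATG5) and 4 did not pass (ATG7, WIPI2, MAP1LC3B and SQSTM1). The test was limma on log2(FPKM + 1) over 11566 genes, with a Benjamini-Hochberg adjusted p under 0.05 as the threshold. Of all tested genes 26.5% were higher and 9.04% lower, 35.6% in all. All 10 genes passed the filter on low values. Every shTRMT6 library lay above every shControl library for 6 of the 10 genes and below for 1, while over all tested genes these shares were 37.0% and 14.3%, and 51.4% had groups that did not overlap in either direction. The median log2 fold change was 0.81 for the 10 genes and 0.39 for all tested genes. The 10 genes were chosen with earlier results of these data known, so their comparison with all genes is a description. After scaling each library to its median, the median of all tested genes was -0.07 and that of the 10 genes 0.32, with 2 of the 10 higher (ATG16L1 and WIPI1, against 13.1% of all genes) and 2 lower (ATG5 and MAP1LC3B, against 19.7%). Quantile normalization left 4 higher (against 13.9%) and 1 lower (against 14.7%). Removing the trends of change with level and coding length left 3 higher (against 13.5%) and 0 lower (against 13.6%; limma, with 1 lower at an unadjusted p under 0.05).

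**Figure D1:**
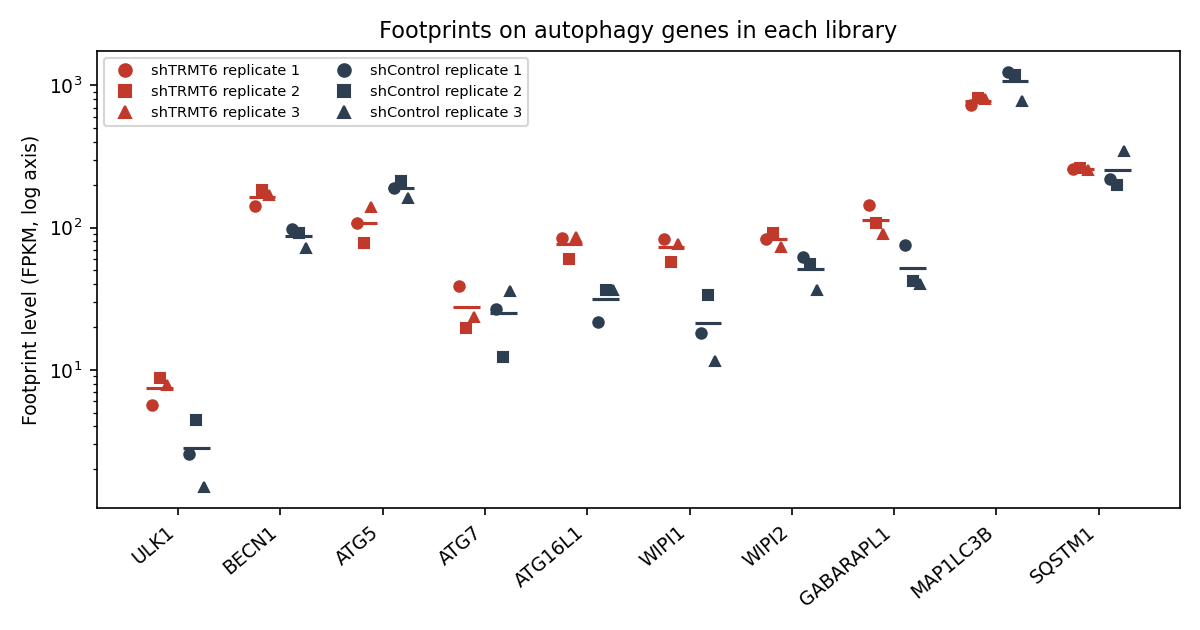
FPKM of each gene in each library on a log axis, with shTRMT6 (red) left of shControl (dark) and a bar at the mean of 3 libraries. The shTRMT6 points lie above all shControl points for ULK1, BECN1, ATG16L1, WIPI1, WIPI2 and GABARAPL1, below them for ATG5, and among them for ATG7, MAP1LC3B and SQSTM1.

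The copies of the ATG8 genes bear on how far a footprint can be assigned to 1 gene. MAP1LC3B and its copy MAP1LC3B2 differ at 2 of 375 coding bases in GENCODE 29 transcripts, and 292 of the 348 windows of 28 nucleotides in MAP1LC3B recur in MAP1LC3B2. The first 60 coding bases of both are shown because a footprint from this stretch can be told apart only through the base in capitals, where they differ, and GABARAPL1 with its paralog GABARAP are shown beside them with their 19 differing bases in capitals.
MAP1LC3B: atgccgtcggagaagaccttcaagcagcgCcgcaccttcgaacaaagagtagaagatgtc
MAP1LC3B2: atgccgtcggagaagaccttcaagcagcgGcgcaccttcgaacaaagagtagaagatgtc
GABARAPL1: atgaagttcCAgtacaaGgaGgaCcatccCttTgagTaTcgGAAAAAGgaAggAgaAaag
GABARAP: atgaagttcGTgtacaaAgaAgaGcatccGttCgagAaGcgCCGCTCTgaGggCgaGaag
The coding form used here for GABARAPL1 has 351 bases and was taken as the closest in length to GABARAP, while its longest form has 438. Over the whole of these coding sequences GABARAPL1 and GABARAP were 76.6% identical and shared 0 of 324 windows. GABARAPL1 shared 75 of its 324 windows with GABARAPL3, and WIPI2 shared 3.1% of its windows with other transcripts. The other 7 genes shared 0% of theirs. How reads of near-identical genes were divided is not given in the sources used here, so MAP1LC3B and MAP1LC3B2 are best read as a pair. MAP1LC3B2 had 11.9, 0 and 0 FPKM in shTRMT6 and was listed at 0 in every shControl library.

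ULK1, the kinase that starts autophagy when released from mTORC1, was the gene with the lowest level among the 10. ULK1 (ENSG00000177169, chromosome 12 from 131894651 to 131923167, plus strand, GENCODE 29 on GRCh38) had 5.63, 8.84 and 7.79 FPKM in shTRMT6, against 2.57, 4.45 and 1.49 FPKM in shControl. The groups did not overlap, and shTRMT6 averaged 7.42 ± 1.64 FPKM and shControl 2.84 ± 1.5 FPKM (SD, n = 3 each). ULK1 thus had a log2 fold change of 1.19 (SE 0.38, limma adjusted p = 0.0368) on the scale of FPKM + 1, which understates the change of a low gene, and the ratio of means was 2.62. These levels rest on an estimated 49 to 113 reads per shTRMT6 library and 18 to 37 per shControl library. The call ended with median scaling (log2 fold change 0.80, adjusted p = 0.132), once the trends with level and coding length were removed (0.22, adjusted p = 0.682) and under quantile normalization (0.41, adjusted p = 0.397). It also ended without any single library other than shControl replicate 2, with adjusted p = 0.0844 and 0.0777 without shControl replicates 1 and 3, and 0.0596, 0.114 and 0.106 without shTRMT6 replicates 1, 2 and 3.

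BECN1, the scaffold of the class III lipid kinase complex, was higher in every shTRMT6 library. BECN1 (ENSG00000126581, chromosome 17 from 42810134 to 42833350, minus strand) had 142.8, 183 and 169 FPKM in shTRMT6, against 98.1, 92.4 and 72.0 FPKM in shControl. The means were 165 ± 20.5 and 87.5 ± 13.7 FPKM in shTRMT6 and shControl (SD, n = 3 each), with a log2 fold change of 0.91 (SE 0.22, limma adjusted p = 0.0123). Exons of CNTD1 on the opposite strand overlap 166 coding bases of BECN1, and CNTD1 was listed at 0 in every library. The BECN1 call ended with median scaling (0.42, adjusted p = 0.179) and when shTRMT6 replicate 2 (0.84, adjusted p = 0.0528) or 3 (0.89, adjusted p = 0.0519) was left out.

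WIPI1, which binds PI3P on the forming membrane, was higher in shTRMT6 and had the largest log2 fold change of the 10 genes. WIPI1 (ENSG00000070540, chromosome 17 from 68420948 to 68457513, minus strand) had 83.8, 57.8 and 76.2 FPKM in shTRMT6, against 18.1, 33.9 and 11.6 FPKM in shControl. The lowest shTRMT6 library was thus well above the highest shControl library, which was replicate 2. The means were 72.6 ± 13.3 FPKM in shTRMT6 and 21.2 ± 11.4 FPKM in shControl (SD, n = 3 each), 3.42 times apart, for a log2 fold change of 1.84 (SE 0.37, limma adjusted p = 0.00556). It lay above 93.4% of the fold changes of all tested genes. In the 13 alternatives tried, WIPI1 kept its direction and its call, with log2 fold changes of 1.36 with median scaling and 1.42 both with quantile normalization and with trends removed. Exons of ARSG on the opposite strand overlap 45 coding bases of WIPI1, and ARSG had 1.68, 2.36 and 2.52 FPKM in shTRMT6, against 1.96, 2.69 and 0.98 FPKM in shControl.

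WIPI2, the family member that recruits ATG16L1, also had non-overlapping groups but did not pass. WIPI2 (ENSG00000157954, chromosome 7 from 5190188 to 5233826, plus strand) had 83.5, 91.2 and 73.7 FPKM in shTRMT6, against 61.9, 55.5 and 36.6 FPKM in shControl. The log2 fold change was 0.71 (SE 0.26, limma adjusted p = 0.0575), with a 95% interval of 0.13 to 1.29 before adjustment over genes. It was 0.22 with median scaling, 0.42 with quantile normalization, 0.39 with trends removed and 0.48 without shControl replicate 3, and passed in none of the 13 alternatives (adjusted p = 0.0517 to 0.547). The difference between WIPI1 and WIPI2 in response was not tested.

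The 3 genes of the ATG12 conjugation step gave different results. ATG16L1, which places the ATG12-ATG5 conjugate on the membrane, was higher. ATG16L1 (ENSG00000085978, chromosome 2 from 233210051 to 233295674, plus strand) had 84.0, 60.3 and 86.1 FPKM in shTRMT6, against 21.8, 36.7 and 36.3 FPKM in shControl. The groups did not overlap, with means of 76.8 ± 14.4 FPKM in shTRMT6 and 31.6 ± 8.48 FPKM in shControl (SD, n = 3 each) and a log2 fold change of 1.27 (SE 0.28, limma adjusted p = 0.00843). Its call ended only with the trends with level and coding length removed, of the 13 alternatives (0.71, adjusted p = 0.0564).

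ATG5, the acceptor of ATG12, was the single gene of the 10 that was lower. ATG5 (ENSG00000057663, chromosome 6 from 106045423 to 106325791, minus strand) had 109, 77.4 and 139.6 FPKM in shTRMT6, against 189.5, 214 and 162 FPKM in shControl. Every shTRMT6 value lay below every shControl value, and the means were 109 ± 31.1 FPKM in shTRMT6 and 189 ± 26.2 FPKM in shControl (SD, n = 3 each). ATG5 thus had a log2 fold change of -0.82 (SE 0.26, limma adjusted p = 0.0336), or -1.32 with median scaling. The call ended without shControl replicate 1 (adjusted p = 0.0834) or 2 (0.0884), without shTRMT6 replicate 1 (0.0906) or 2 (0.124), and with trends removed (-0.69, adjusted p = 0.0611).

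ATG7, the E1-like enzyme of both conjugation reactions, did not pass and its libraries overlapped. ATG7 (ENSG00000197548, chromosome 3 from 11272309 to 11557665, plus strand) had 39.1, 19.8 and 23.7 FPKM in shTRMT6, against 26.8, 12.4 and 35.7 FPKM in shControl. The log2 fold change was 0.20 (SE 0.41, limma adjusted p = 0.727; 95% interval -0.71 to 1.11), so the spread between libraries leaves changes of either sign within the interval. Its sign turned with median scaling (-0.28), quantile normalization (-0.31) and trends removed (-0.45), and without shControl replicate 2 (-0.22) or shTRMT6 replicate 1 (-0.07).

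Among the ATG8 proteins, GABARAPL1 was higher in shTRMT6 while MAP1LC3B did not pass. GABARAPL1 (ENSG00000139112, chromosome 12 from 10212458 to 10223130, plus strand) had 143, 107 and 90.6 FPKM in shTRMT6, against 75.1, 42.1 and 40.1 FPKM in shControl. The groups did not overlap, with means of 114 ± 27.0 FPKM in shTRMT6 and 52.4 ± 19.7 FPKM in shControl (SD, n = 3 each) and a log2 fold change of 1.14 (SE 0.30, limma adjusted p = 0.0168). The GABARAPL1 call ended with median scaling (0.65, adjusted p = 0.138) and when shTRMT6 replicate 1 (0.96, adjusted p = 0.0773) or 2 (1.16, adjusted p = 0.0502) was left out.

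MAP1LC3B, which encodes the LC3B protein used as the marker of autophagosomes, had the highest level of the 10 genes. MAP1LC3B (ENSG00000140941, chromosome 16 from 87383995 to 87404779, plus strand) had 727, 813 and 802 FPKM in shTRMT6, against 1253, 1185 and 782 FPKM in shControl. The shTRMT6 values sat close together, and 1 of them lay below while 2 lay above shControl replicate 3. The log2 fold change was -0.43 (SE 0.23, limma adjusted p = 0.169; 95% interval -0.94 to 0.08). Without shControl replicate 3 it passed (-0.64, adjusted p = 0.00730), as it did with median scaling (-0.93, adjusted p = 0.0137), while it was 0.01 with quantile normalization and 0.0 with trends removed. On 86.2% of its windows MAP1LC3B is not unique, so this level is uncertain.

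The other ATG8 genes were set beside these, since the family shares one conjugation system. MAP1LC3C was lower in shTRMT6, with 152, 138 and 228 FPKM in shTRMT6, against 471, 483 and 314 FPKM in shControl (log2 fold change -1.29, SE 0.27, limma adjusted p = 0.00637). GABARAP had 1453, 1592 and 1391 FPKM in shTRMT6, against 1849, 1563 and 1202 FPKM in shControl, and GABARAPL2 had 277, 271 and 469 FPKM in shTRMT6, against 528, 494 and 309 FPKM in shControl. Neither passed (log2 fold change -0.04, adjusted p = 0.911, and -0.40, adjusted p = 0.309), and MAP1LC3A was listed at 0 in every library. GABARAPL2 was lower with median scaling (-0.89, adjusted p = 0.0371). GABARAP passed as higher with quantile normalization (0.54, adjusted p = 0.0374) and with trends removed (0.42, adjusted p = 0.0323), whereas it was at -0.53 with median scaling (adjusted p = 0.0989), so its direction depends on the scaling. Summed over the family, shTRMT6 had 2765, 2921 and 2981 FPKM and shControl 4175, 3766 and 2647 FPKM, a difference in log2 of -0.26 (two-sided exact permutation p = 0.4, where 3 against 3 allows no p under 0.1). That difference was -0.76 with median scaling (exact permutation p = 0.1), -0.46 without shControl replicate 3 and -0.13 without shControl replicate 1. GABARAPL1 made up 5.18%, 3.67% and 3.04% of the family sum in shTRMT6, against 1.80%, 1.12% and 1.51% in shControl, and MAP1LC3C 5.51%, 4.71% and 7.65% in shTRMT6, against 11.3%, 12.8% and 11.9% in shControl. The ratio of mean MAP1LC3B to mean GABARAPL1 level, both per length, was 6.87 in shTRMT6 and 20.5 in shControl.

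**Figure D2:**
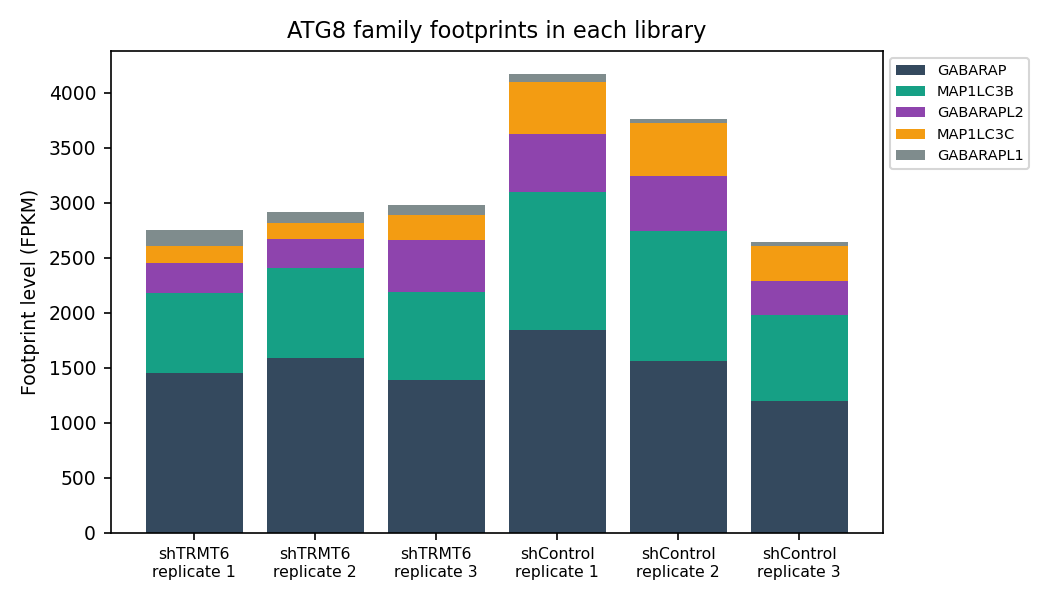
FPKM of the 5 ATG8 genes that were tested, stacked for each library, with the shTRMT6 libraries left of the shControl libraries. GABARAP and MAP1LC3B fill most of each bar, the MAP1LC3C segment is thinner in shTRMT6 and the GABARAPL1 segment thicker, and shControl replicate 3 has the lowest bar.

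SQSTM1, the receptor p62 that binds ubiquitin and ATG8 proteins and is itself consumed by autophagy, had nearly equal group means. SQSTM1 (ENSG00000161011, chromosome 5 from 179806398 to 179838078, plus strand) had 257, 262 and 256 FPKM in shTRMT6, against 219.8, 199 and 348 FPKM in shControl. The shTRMT6 libraries lay between 2 lower shControl libraries and the higher shControl replicate 3, with means of 258 ± 3.41 FPKM in shTRMT6 and 256 ± 80.7 FPKM in shControl (SD, n = 3 each). SQSTM1 thus had a log2 fold change of 0.06 (SE 0.24, limma adjusted p = 0.868; 95% interval -0.49 to 0.61), and its sign turned with median scaling (-0.44) and without shControl replicate 1 (-0.03) or 2 (-0.10). Exons of MRNIP on the opposite strand overlap 155 coding bases of SQSTM1, and MRNIP had 67.5, 69.1 and 62.2 FPKM in shTRMT6, against 14.0, 33.3 and 7.89 FPKM in shControl. Whether the counting used strand is not given in the sources used here, and the part of such overlaps in the values was not tested.

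The order of the 10 levels was similar at both ends in the groups and shifted in the middle. In shTRMT6 the order of mean FPKM was MAP1LC3B, SQSTM1, BECN1, GABARAPL1, ATG5, WIPI2, ATG16L1, WIPI1, ATG7 and ULK1, where neighbours overlapped in range for each step between BECN1 and WIPI1. In shControl it was MAP1LC3B, SQSTM1, ATG5, BECN1, GABARAPL1, WIPI2, ATG16L1, ATG7, WIPI1 and ULK1, where SQSTM1 overlapped ATG5 and each step between BECN1 and WIPI1 overlapped. Against all tested genes, the mean level over 6 libraries stood at the 97.4 percentile for MAP1LC3B and at the 12.7 percentile for ULK1. Of the control libraries, shControl replicate 3 was the lowest for 7 of the 10 genes and the highest for ATG7 and SQSTM1, and it was the lowest control library for 48.4% of all tested genes.

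Over the 6 libraries, genes with a high Pearson's r to SQSTM1 were PRKCD (0.997) and JUNB (0.996), both highest in shControl replicate 3, as JUNB shows with 26.4, 28.3 and 27.2 FPKM in shTRMT6, against 22.8, 19.8 and 42.0 FPKM in shControl. For MAP1LC3B the 3 highest were URM1 (0.996), LSM4 (0.994) and PFDN2 (0.994). These values describe 6 points that share library and group.

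**Figure D3:**
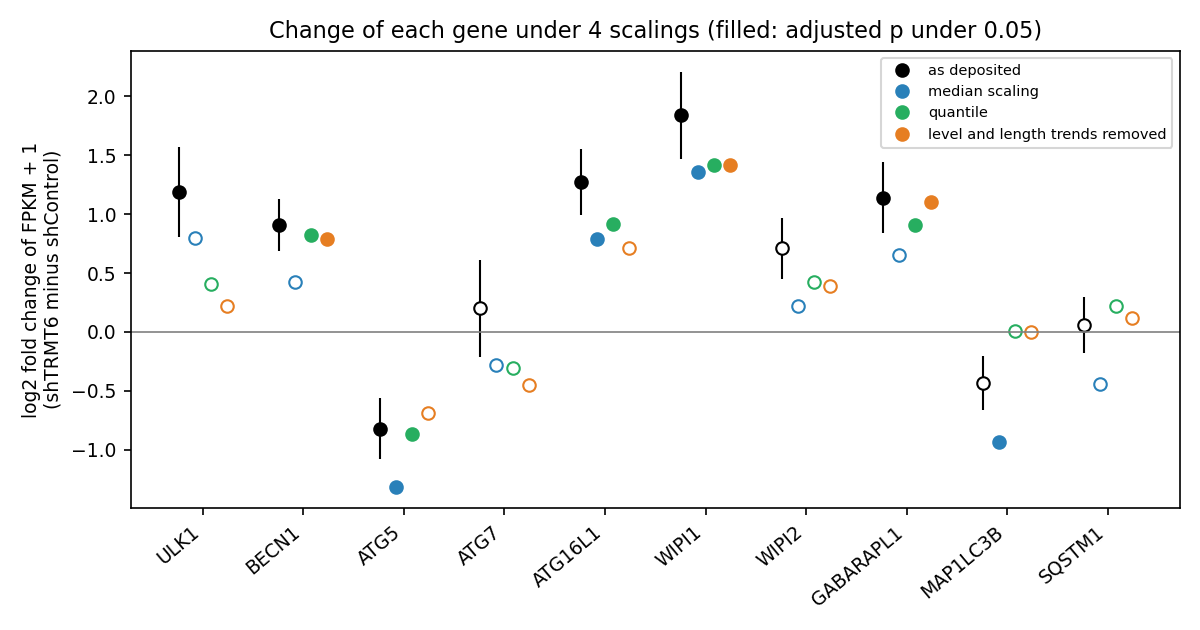
Log2 fold change of FPKM + 1 (shTRMT6 minus shControl) of each gene as deposited, with its SE as a bar, and under median scaling, quantile normalization and removal of trends with level and coding length. Filled points have an adjusted p under 0.05. WIPI1 is filled under all 4, ATG16L1, BECN1, GABARAPL1 and ATG5 under 3, ULK1 only as deposited, and MAP1LC3B only with median scaling.

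Promoters were examined because 5 of the genes were higher together. RefSeq promoters (GRCh38.p14, 250 bases before to 50 after a start) were found for all 10 genes, 14 starts in all, and were searched on both strands. The letters CACGTG, the core of the CLEAR element bound by TFEB, were in 0 of the 14 and in 7.26% of 35116 promoters. The FOXO motif GTAAACA and the amino acid response motif TGATGNAA were in 0 of the 14 and in 3.42% and 3.62% of all. The antioxidant response motif TGACNNNGC was in 1, that of MAP1LC3B, and in 13.3% of all, and the GC box GGGCGG was in 11 of the 14 and in 45.0% of all. The GC box was found for 9 of the 10 genes, and so is not particular to the higher ones. It was found for ATG5, which was lower, and for ATG7, WIPI2, MAP1LC3B and SQSTM1, which did not pass, and not for BECN1, which was higher. The cAMP response element TGACGTCA was in 1, that of GABARAPL1, and in 1.85% of all promoters. The first 200 bases of a WIPI1 promoter are shown because this gene had the largest increase (chr17:68457547-68457746, minus strand). The 6 GC boxes within that stretch, on either strand, are in capitals, and GC boxes in the later bases of the promoter were not counted. A stretch of a GABARAPL1 promoter is shown with its cAMP response element in capitals (chr12:10212836-10212865, plus strand). The GABARAPL1 stretch lies upstream of the RefSeq start but within exons of GABARAPL1 in GENCODE 29, whose gene begins farther upstream.
WIPI1: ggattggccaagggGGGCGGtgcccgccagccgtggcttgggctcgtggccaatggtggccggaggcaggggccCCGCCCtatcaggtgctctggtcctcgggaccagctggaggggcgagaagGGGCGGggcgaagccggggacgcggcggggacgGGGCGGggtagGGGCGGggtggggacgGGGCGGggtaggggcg
GABARAPL1: ggctcgcggggTGACGTCAcagcccgacgc
These matches are descriptions of letters, and binding was not measured.

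The other genes of the pathway were 123 in 10 lists by role, also chosen with earlier results of these data known. Of the 117 that were tested, 24 were higher and 8 lower in shTRMT6, beside 26.5% and 9.04% of all tested genes, and their median log2 fold change was 0.15, beside 0.39 for all. After median scaling 10 were higher and 28 lower (13.1% and 19.7% of all genes), after quantile normalization 15 and 14 (13.9% and 14.7%), and with trends removed 16 and 17 (13.5% and 13.6%). Of the 24 higher genes, 10 kept the call with median scaling, 13 with quantile normalization and 12 with trends removed. Of the 8 lower genes, 8, 7 and 7 kept it. Median scaling moved the median of all tested genes from 0.39 to -0.07, so a lower call could hardly be lost in that setting.

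In the complex of ULK1, 1 of 4 further genes was higher (26.5% of all tested genes). The related kinase ULK2 rose, and ATG13, RB1CC1 and ATG101, named after their values were seen, did not pass. ULK2 averaged 11.9 ± 6.78 FPKM in shTRMT6 and 1.79 ± 0.87 FPKM in shControl (SD, n = 3 each; log2 fold change 2.12, SE 0.46, limma adjusted p = 0.00785), a call that ended with trends removed (1.15, adjusted p = 0.0758). Around BECN1, 3 of 10 genes were higher and 1 lower (26.5% and 9.04% of all tested genes), and 1 higher and 1 lower with median scaling (13.1% and 19.7% of all). Quantile normalization gave 3 higher and 1 lower (13.9% and 14.7% of all), and trends removed 2 and 1 (13.5% and 13.6%). PIK3C3, the catalytic subunit, averaged 93.7 ± 36.0 FPKM in shTRMT6 and 29.5 ± 20.7 FPKM in shControl (log2 fold change 1.77, limma adjusted p = 0.0150). BCL2L1, an antiapoptotic protein that binds BECN1, averaged 85.3 ± 12.5 FPKM in shTRMT6 and 28.2 ± 8.40 FPKM in shControl (log2 fold change 1.6, adjusted p = 0.00359), and VMP1, a membrane protein of the endoplasmic reticulum, 803 ± 49.1 FPKM in shTRMT6 and 417 ± 61.6 FPKM in shControl (log2 fold change 0.95, adjusted p = 0.00678). NRBF2, a subunit of the same complex, was lower, at 11.6 ± 3.46 FPKM in shTRMT6 and 24.8 ± 6.06 FPKM in shControl (-1.05, limma adjusted p = 0.0298). NRBF2 shares 71.9% of its windows with other transcripts, mainly its pseudogenes, so its level is uncertain. VMP1 lost its call with median scaling (0.46, adjusted p = 0.0979) and PIK3C3 with median scaling (1.28, adjusted p = 0.0537) and trends removed (1.11, adjusted p = 0.0696). PIK3C3 also lost it without shControl replicate 1 (adjusted p = 0.0515) or shTRMT6 replicate 3 (0.0638), and NRBF2 without shControl replicate 1 (0.101) or shTRMT6 replicate 1 (0.0587), 2 (0.0510) or 3 (0.118).

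In the list of ATG9, ATG2 and WIPI, 2 of 7 further tested genes were higher (26.5% of all tested genes) and 0 lower (9.04% of all; limma, with 0 lower at an unadjusted p under 0.05). With median scaling 1 was higher and 1 lower (13.1% and 19.7% of all). The 2 higher genes were ZFYVE1, a PI3P-binding protein of the membrane from which autophagosomes form (log2 fold change 1.37, limma adjusted p = 0.0106), and ATG2B, a lipid transfer protein (1.16, adjusted p = 0.0213). ATG2B had 6.43, 6.91 and 9.76 FPKM in shTRMT6, against 2.41, 3.39 and 2.77 FPKM in shControl, and lost its call without shControl replicate 1 (0.0633) or shTRMT6 replicate 2 (0.0509) or 3 (0.0902) and under each of the 3 rescalings (adjusted p between 0.0953 and 0.933). ZFYVE1 lost its call with quantile normalization (0.65, adjusted p = 0.168) and trends removed (0.5, adjusted p = 0.289). Of the further genes of ATG12 conjugation 0 of 4 passed (35.6% of all tested genes; limma, with 0 at an unadjusted p under 0.05). Among the enzymes that process ATG8 proteins, the protease ATG4D rose to 103 ± 28.1 FPKM in shTRMT6, against 34.0 ± 11.4 FPKM in shControl (SD, n = 3 each; 1.59, limma adjusted p = 0.00449). The other 4 did not pass, so 1 of 5 passed, beside 35.6% of all tested genes. With median scaling ATG4D was higher and ATG3, the E2-like enzyme, and ATG4C, another protease, were lower (-0.95 and -1.02, adjusted p = 0.00974 and 0.0359), and ATG4C was also lower with quantile normalization (-1.04) and trends removed (-0.98). ATG3 and ATG4C were named after their values were seen.

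Of 13 further receptors and scaffolds tested, 2 were higher and 2 lower (26.5% and 9.04% of all tested genes), and with median scaling 1 was higher and 5 lower (13.1% and 19.7% of all). WDFY3, a large scaffold for aggregate clearance, had 38.6, 32.1 and 37.9 FPKM in shTRMT6, against 2.12, 8.08 and 5.79 FPKM in shControl (log2 fold change 2.68, SE 0.39, limma adjusted p = 0.00176), and TAX1BP1, a ubiquitin-binding receptor, had a log2 fold change of 1.22 (adjusted p = 0.0325). The 2 lower genes encode receptors on mitochondria. BNIP3L had 34.1, 43.1 and 37.9 FPKM in shTRMT6, against 98.7, 87.8 and 86.5 FPKM in shControl (-1.23, SE 0.22, limma adjusted p = 0.00366), and FUNDC1 had a log2 fold change of -0.79 (adjusted p = 0.0327). Of the fits that left out 1 library, TAX1BP1 and FUNDC1 kept their calls only without shControl replicate 3. The others gave adjusted p-values up to 0.105 for TAX1BP1 and 0.115 for FUNDC1, both without shControl replicate 1. TAX1BP1 also lost its call with no filter (adjusted p = 0.0580) and under the 3 rescalings (0.143 to 0.273). FUNDC1 shares 10.3% of its windows with other transcripts.

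At the step of fusion with the lysosome, 5 of 13 genes were higher and 1 lower (26.5% and 9.04% of all tested genes), and with median scaling 1 was higher and 1 lower (13.1% and 19.7% of all). Quantile normalization gave 2 higher and 1 lower (13.9% and 14.7% of all), and trends removed 2 and 1 (13.5% and 13.6%). RAB7A, the GTPase of late endosomes, fell to 208, 185 and 189 FPKM in shTRMT6, against 456, 474 and 554 FPKM in shControl (log2 fold change -1.34, SE 0.19, limma adjusted p = 0.00171). PLEKHM1, an adaptor that binds RAB7 and ATG8 proteins, rose to 104, 92.4 and 85.8 FPKM in shTRMT6, against 34.4, 34.7 and 22.3 FPKM in shControl (1.62, adjusted p = 0.00221). PLEKHM1 shares 63.0% of its windows with other transcripts, nearly all of them in PLEKHM1P1, so its level is uncertain. VPS11 and VPS39, subunits of the HOPS tether, had log2 fold changes of 1.21 and 1.15. Without shControl replicate 1 they had adjusted p-values of 0.0501 and 0.0521, without shTRMT6 replicate 1 0.0612 and 0.0525, and without shTRMT6 replicate 3 0.0625 and 0.0682. Neither passed under the 3 rescalings, with adjusted p-values of 0.0796 to 0.301 for VPS11 and 0.105 to 0.412 for VPS39.

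Among regulators upstream of ULK1, the mTORC1 and AMPK genes, 8 of 23 were higher and 1 lower (26.5% and 9.04% of all tested genes), while median scaling gave 3 higher and 4 lower (13.1% and 19.7% of all). Quantile normalization gave 4 higher and 2 lower (13.9% and 14.7% of all), and trends removed 7 and 2 (13.5% and 13.6%). RRAGB, a Rag GTPase that brings mTORC1 to the lysosome, had 27.2, 28.1 and 34.0 FPKM in shTRMT6, against 5.71, 4.46 and 5.51 FPKM in shControl (log2 fold change 2.30, SE 0.27, limma adjusted p = 0.000875). STK11, the kinase LKB1 that activates AMPK, averaged 58.3 ± 5.37 FPKM in shTRMT6 and 12.7 ± 6.35 FPKM in shControl (log2 fold change 2.21, adjusted p = 0.00198), and PRKAB1, a regulatory subunit of AMPK, 32.8 ± 7.13 FPKM in shTRMT6 and 8.81 ± 1.27 FPKM in shControl (log2 fold change 1.77, adjusted p = 0.00244). MTOR had a log2 fold change of 1.15 (adjusted p = 0.0110), which did not pass without shTRMT6 replicate 3 (1.09, adjusted p = 0.0502) or under the 3 rescalings (adjusted p between 0.0762 and 0.626). In the list of TFEB factors and lysosomal genes, 2 of 35 were higher and 2 lower (26.5% and 9.04% of all tested genes), and with median scaling 1 was higher and 12 lower (13.1% and 19.7% of all). In that list quantile normalization gave 2 higher and 3 lower (13.9% and 14.7% of all), and trends removed 2 and 5 (13.5% and 13.6%). FLCN and FNIP1, which form a complex that regulates Rag GTPases, had log2 fold changes of 1.92 and 1.12 (adjusted p = 0.00142 and 0.00772). FNIP1 did not pass under the 3 rescalings (adjusted p between 0.0634 and 0.287), and FLCN shares 35.7% of its windows with a gene that overlaps it on the same strand. ATP6V0D1 and ATP6V1C1, subunits of the lysosomal proton pump, had -1.09 and -0.80 (adjusted p = 0.00430 and 0.0159), and ATP6V1C1 lost its call without shControl replicate 1 (0.0564) or shTRMT6 replicate 1 (0.0761) or 2 (0.0587). TFEB itself had 7.71, 3.05 and 1.99 FPKM in shTRMT6, against 3.81, 3.50 and 2.35 FPKM in shControl, and did not pass (adjusted p = 0.772). It was named after its value was seen.

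Of the 25 further genes named here, 12 kept their direction and call in all 13 alternatives run. Those higher were BCL2L1, ATG4D, WDFY3, PLEKHM1, RRAGB, STK11, PRKAB1 and FLCN, and those lower MAP1LC3C, BNIP3L, RAB7A and ATP6V0D1. Antisense genes overlap the coding exons of BCL2L1, WDFY3 and MTOR, and their part in these levels was not tested.

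**Figure D4:**
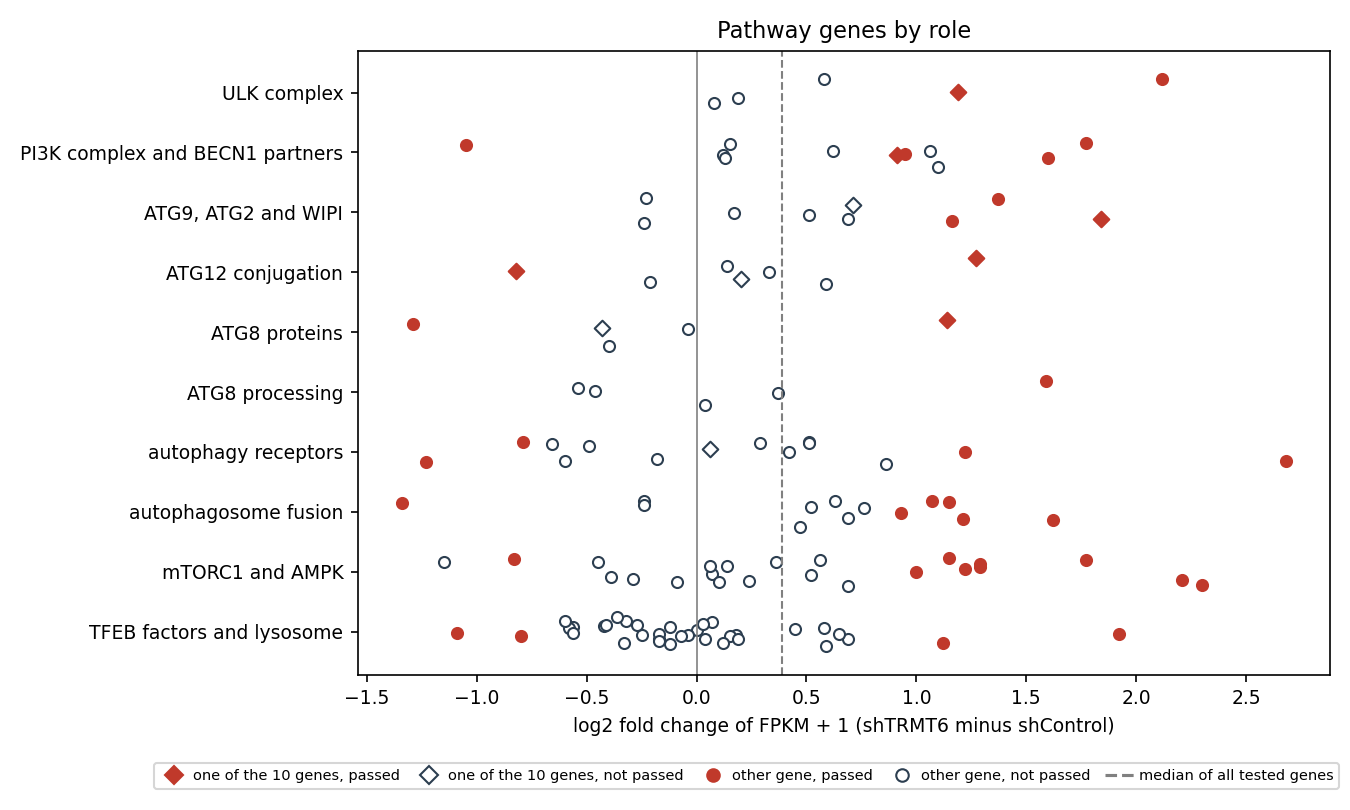
Log2 fold change of FPKM + 1 (shTRMT6 minus shControl) of each tested pathway gene, by role, with diamonds for the 10 genes, circles for the others and filled symbols for adjusted p under 0.05. The dashed line is the median of all tested genes at 0.39, and most lists spread to both sides of it.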

How the data were processed

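The deposited table holds 1 FPKM value for each gene and library, per the file headers. For its making, fastp, STAR and RSEM are listed in the submitters' processing notes. Not given in the sources used here: build, annotation, strand and the division of shared reads. Ribosome-protected fragments came from RNase I digestion and size exclusion columns, per the labels' protocols. Columns named NC and SH, numbered 1 to 3, were read as shControl and shTRMT6, which no label spells out.

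Symbols were found for 19705 of 20289 identifiers. Positions, coding lengths and transcript sequences came from GENCODE 29 on GRCh38, and promoters from RefSeq (GRCh38.p14). Reads per library were estimated from the steps of low FPKM values times coding length, and 69.3% to 80.0% of the low values were within 0.1 of whole reads. These are estimates, so count models were not fitted.

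Group differences were tested with limma 3.58.1 in R 4.3.3 (log2 of FPKM + 1, eBayes with trend, group as the only term) over the 11566 genes that reached 1 FPKM in 3 or more libraries, adjusted over all of them (Benjamini-Hochberg). Alternatives were median scaling, quantile normalization, removal of level and length trends (5 df splines), a pseudocount of 0.1, no filter, a filter at a mean of 5 FPKM, a replicate block and leaving out each library. The fit was checked on simulated data for the sign of its calls, the share of false calls and the size of its estimates. The share of planted changes that it found was not a condition of that check, so a gene that did not pass may still differ. The 10 genes and the role lists were chosen with earlier results of these data known. All 10 are named, and from each list up to 4 further genes past the threshold with the smallest p. Genes most like SQSTM1 and MAP1LC3B were taken by Pearson's r over the libraries, and 1 of them is not reported here. Tables and figures were made in Python 3.11.15 with pandas 2.3.3, numpy 2.4.6, biopython 1.88 and matplotlib 3.10.9.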

Additional observations from a re-analysis of the deposited data

How the results depend on the processing

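With median scaling, 2 of the 10 genes were higher and 2 lower, 10 and 28 of the other pathway genes, and 1520 and 2275 of all genes, against 3069 and 1046 as deposited. With quantile normalization 15 and 14 of the other pathway genes and 1602 and 1700 of all genes were higher and lower. With trends removed 3 and 0 of the 10 genes were higher and lower (limma, with 4 and 1 at an unadjusted p under 0.05). In that setting 16 and 17 of the other pathway genes and 1547 and 1559 of all genes were higher and lower. Leaving out 1 library at a time, 2 to 5 of the 10 genes were higher and 0 to 2 lower, 14 to 25 and 4 to 12 of the other pathway genes, and 1828 to 3270 and 587 to 1428 of all genes. The fold change of ATG7 turned to -0.28 with median scaling, -0.31 with quantile normalization, -0.45 with trends removed and -0.22 and -0.07 without shControl replicate 2 and shTRMT6 replicate 1 (range without 1 library -0.22 to 0.51). That of SQSTM1 turned to -0.44 with median scaling and to -0.03 and -0.10 without shControl replicates 1 and 2 (range -0.10 to 0.30), and that of MAP1LC3B to 0.01 with quantile normalization and 0.0 with trends removed. The causes were not tested. Dropping the filter, requiring a mean of 5 FPKM and a pseudocount of 0.1 changed no call among the 10 genes, and TRMT6 kept its call in every alternative run, between -1.70 and -1.35 without 1 library. With the replicate number as a block, 5 of the 10 genes were higher and 1 lower, as without it, and 4211 genes passed in all against 4115. The correlations of same-numbered libraries' deviations from their group means were 0.012, 0.013 and 0.102. Those of libraries with unlike numbers ran from -0.143 to 0.127. Whether same-numbered libraries share a culture or preparation is not given, and these values cannot tell. At this depth a low gene such as ULK1 rests on an estimated 18 to 113 reads a library, and its level is imprecise.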
